A study of Homo sapiens with 9 samples.

Results

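Among genes that mark the epithelial or the mesenchymal state of a cell, CDH1, EPCAM, ESRP1 and ZEB1 each changed in opposite directions with 2 siRNAs against the same long noncoding RNA, LINC00857. With LINC00857-siRNA1, the epithelial genes CDH1, EPCAM and ESRP1 were higher and ZEB1 and VIM were lower than with the negative control siRNA. With LINC00857-siRNA2, CDH1, EPCAM and ESRP1 were lower and ZEB1 and SNAI2 were higher. The CDH1 call with siRNA1 and the SNAI2 call with siRNA2 were each lost without certain single libraries (edgeR, adjusted p up to 0.0982 and 0.0550). The set comprises 10 genes, CDH1, CDH2, VIM, ZEB1, ZEB2, SNAI1, SNAI2, TWIST1, EPCAM and ESRP1, taken by gene symbol from the 35817 genes of the count table. All 10 were found in it, and 8 had enough counts to be tested, against 21130 of all genes. ZEB2 and CDH2 were near 0 and did not pass the filter on low counts.

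RNA came from HCT116, an established human colorectal carcinoma cell line, after transient transfection with either of the 2 siRNAs against the long noncoding RNA, LINC00857-siRNA1 and LINC00857-siRNA2, or with a control siRNA (NC), carried by Lipofectamine RNAiMax, with 3 libraries in each of the 3 groups. The line, the medium and the transfection were shared by all groups, and no untransfected cells were analysed. No label says whether replicates were grown and transfected separately, so the p-values reflect only how far these libraries differ from each other, which may be a technical spread. Total counts were 51411860 to 57815092 per library. LINC00857, the targeted gene, changed by a log2 fold change (log2FC) of -1.18 under siRNA1 and -1.27 under siRNA2 (edgeR's quasi-likelihood test, adjusted p = 0.000292 and 0.000109). Replicates differed by more than sampling noise, with a chi-square per gene of 9.95 to 18.5, the 2 highest values being those of siRNA1 replicate 1 against the other siRNA1 libraries. Of the markers of colorectal epithelium, the keratins KRT8, KRT18 and KRT19 were abundant and CDX2, an intestinal transcription factor, had 582 to 802 counts, whereas CDX1, VIL1, LGALS4 and CEACAM5 had at most 14 counts in any library. Summed over 11 measured markers, this list stood at 3396 to 3580 CPM (counts scaled to the library total) with NC, 3320 to 3809 with siRNA1 and 3767 to 3906 with siRNA2. Nearly all of this sum came from the keratins KRT8 (92217 to 119113 counts), KRT18 (38094 to 52096) and KRT19 (41149 to 65367). The other markers had at most 802 counts in any library, so the sum describes these keratins. Leukocyte and endothelial markers summed to at most 2.56 and 2.61 CPM.

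Epithelial cells hold to each other through E-cadherin, and in an epithelial-mesenchymal transition (EMT) they lose it, exchange keratins for vimentin filaments and become motile. Transcription factors of the ZEB, SNAI and TWIST families bring this about, in part by binding E-box motifs in the CDH1 promoter and repressing it. The microRNAs of the miR-200 family oppose the ZEB factors, which in turn repress the genes of these microRNAs, so that cells tend to settle in the one state or the other. Colorectal carcinoma lines span this range, and intermediate states that carry transcripts of both kinds are known.

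Of the 8 tested genes, 5 passed the threshold with siRNA1, 3 higher and 2 lower, where 21.3% of all tested genes passed (10.8% higher and 10.5% lower). With siRNA2 5 passed as well, 2 higher and 3 lower, where the share over all genes was 27.7% (13.8% higher and 13.9% lower). In the direct comparison of siRNA1 with siRNA2, 5 passed, 3 higher and 2 lower with siRNA1, against 29.4% of all genes (15.1% higher and 14.3% lower). The groups did not overlap in any library for 6 of the 8 with siRNA1, 3 higher and 3 lower (36.2% of all genes, 18.8% higher and 17.4% lower). The same held for 5 with siRNA2, 2 higher and 3 lower (41.6% of all genes, 20.9% higher and 20.6% lower), and for 6 between the siRNAs, 3 higher and 3 lower with siRNA1 (41.8%, 21.5% higher and 20.2% lower). The genes of the set were chosen with earlier results of these data known, so their counts are a description. Both comparisons with NC use the same 3 NC libraries, so their values stand side by side here and are not independent of each other. CDH1, EPCAM, ESRP1 and ZEB1 passed in all 3 comparisons, each with opposite signs for the 2 siRNAs against NC. The share of all tested genes that passed with opposite signs was not counted. Such opposite calls are therefore not shown to be particular to these genes.

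**Figure D1:**
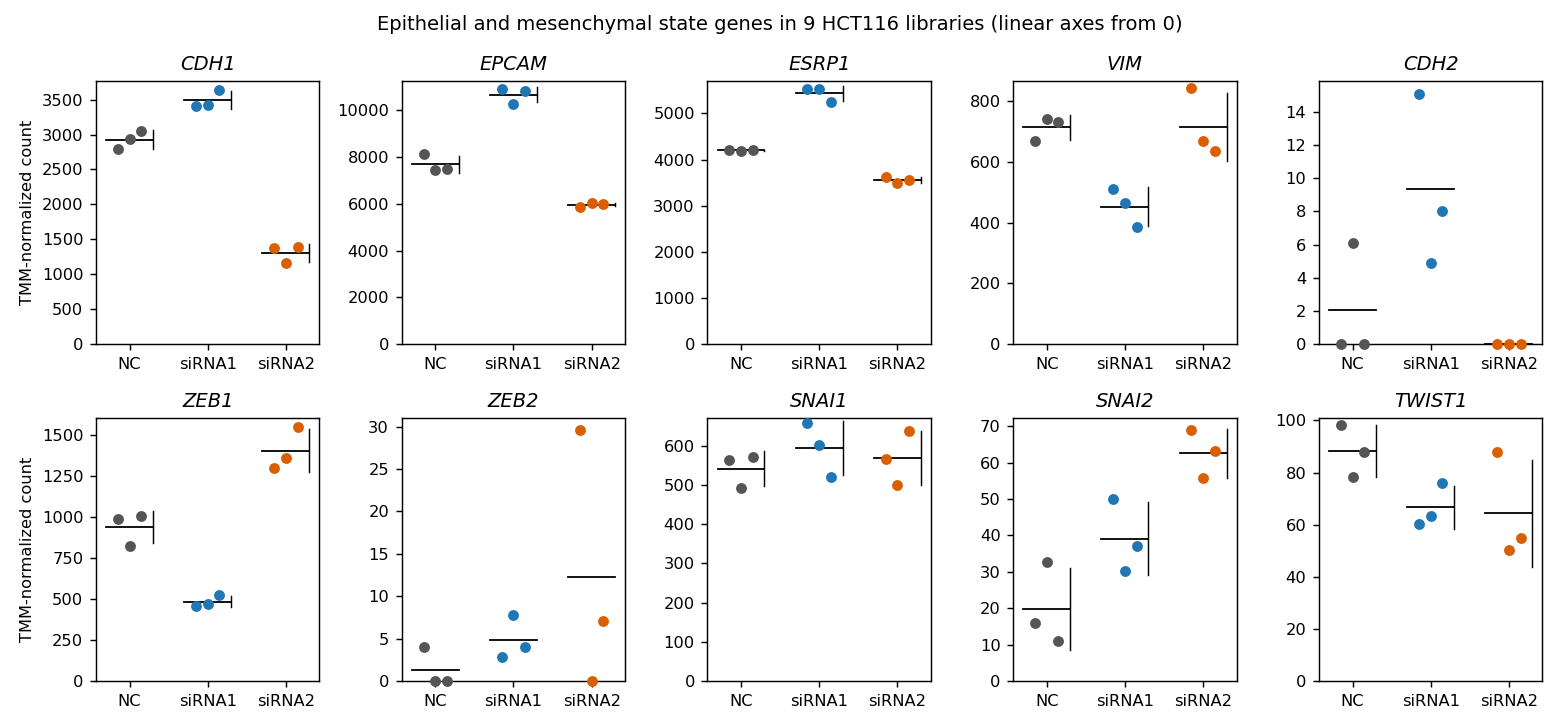
TMM-normalized counts (trimmed mean of M values, a scaling of library sizes) on the vertical axes, all linear and starting at 0, for the 10 genes in the 3 NC, 3 siRNA1 and 3 siRNA2 libraries; each point is a library, horizontal lines are group means and vertical lines are SDs (drawn for the 8 tested genes). CDH1, EPCAM and ESRP1 are highest with siRNA1 and lowest with siRNA2, ZEB1 is lowest with siRNA1 and highest with siRNA2, and ZEB2 and CDH2 lie near 0.

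CDH1 encodes E-cadherin, the adhesion molecule of epithelial junctions (ENSG00000039068, chromosome 16 from 68737225 to 68835548 on the plus strand). Positions here are those of GRCh38, whereas hg19 is named for the deposited counts. In the NC libraries it had 2786, 2938 and 3057 TMM-normalized counts. It had 3407, 3423 and 3641 with siRNA1 and 1369, 1159 and 1386 with siRNA2. The 3 groups did not overlap, siRNA1 lying a little above NC and siRNA2 far below it. The means were 2927 ± 136 with NC, 3491 ± 131 with siRNA1 and 1305 ± 126 with siRNA2 (SD, n = 3 libraries each). Against NC, its log2FC was 0.25 with siRNA1 (edgeR, SE 0.07, adjusted p = 0.0196) and -1.17 with siRNA2 (SE 0.07, adjusted p = 1.06e-07), a level 2.24-fold lower. CDH1 thus showed the largest fall among the 8 tested genes with siRNA2 and a small rise with siRNA1. The direct difference between the siRNAs was 1.42 (edgeR, SE 0.07, adjusted p = 1.24e-08), with siRNA1 2.67-fold higher. The rise with siRNA1 lost its call without NC replicate 1 (adjusted p = 0.0982), without NC replicate 2 (adjusted p = 0.0651) or without siRNA1 replicate 3 (edgeR, adjusted p = 0.0965), whereas the fall with siRNA2 kept it in every alternative run.

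EPCAM, an epithelial cell adhesion molecule of the surface (ENSG00000119888, chromosome 2 from 47345158 to 47387601, plus strand), was the most abundant of the 10 genes. It had 8112, 7442 and 7501 normalized counts with NC, 10895, 10285 and 10806 with siRNA1 and 5885, 6019.7 and 5992 with siRNA2. No library of a group reached into another group. In log2FC this was 0.47 with siRNA1 (edgeR, SE 0.04, adjusted p = 3.84e-06) and -0.37 with siRNA2 (SE 0.04, adjusted p = 2.09e-05). Between the siRNAs the difference was 0.84 (edgeR, SE 0.04, adjusted p = 9.27e-09), or 1.79-fold. Compared with CDH1, the rise was larger and the fall smaller.

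ESRP1, an RNA-binding protein that directs epithelial splice forms (ENSG00000104413, chromosome 8 from 94641074 to 94707466, plus strand), followed the same order. Its normalized counts were 4198, 4194 and 4207 with NC, 5532, 5522 and 5254 with siRNA1 and 3631, 3487 and 3555 with siRNA2. The NC libraries lay very close together, and neither siRNA group overlapped them. The test gave a log2FC of 0.37 with siRNA1 (edgeR, SE 0.04, adjusted p = 1.78e-05) and -0.24 with siRNA2 (SE 0.04, adjusted p = 0.000418). Directly compared, siRNA1 was higher by 0.61 (edgeR, SE 0.04, adjusted p = 8.85e-08). In bulk RNA, a change in the share of cells that carry a transcript and a change in its amount per cell cannot be told apart, for these genes and for those that follow.

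VIM encodes vimentin, the intermediate filament of mesenchymal cells (ENSG00000026025, chromosome 10 from 17228259 to 17237593, plus strand). It had 668, 742 and 732 normalized counts with NC, 510.2, 465 and 385 with siRNA1 and 844, 668 and 637 with siRNA2. All siRNA1 libraries lay below all others, and the siRNA2 libraries lay on either side of NC. The log2FC was -0.66 with siRNA1 (edgeR, SE 0.14, adjusted p = 0.00443) and 0.0043 with siRNA2 (SE 0.14, adjusted p = 0.988). Directly compared, siRNA1 was lower than siRNA2 by a log2 difference of -0.66 (edgeR, SE 0.14, adjusted p = 0.00273). VIM thus passed with siRNA1 and between the siRNAs but not with siRNA2. Its exons overlap those of the antisense gene VIM-AS1 by 641 bases in GENCODE v29. With the read strand not given in the sources used here, reads of the shared bases cannot be assigned, and VIM-AS1 had a mean of 72.3 raw counts over the 9 libraries, far fewer than VIM. VIM-AS1 had 82 normalized counts on average with NC, 40 with siRNA1 and 97 with siRNA2, with a log2FC of -1.05 with siRNA1 (edgeR, adjusted p = 0.0649), which passes without NC replicate 3 (adjusted p = 0.0234) and with all libraries in DESeq2 (adjusted p = 0.0396).

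CDH2, the N-cadherin that often replaces E-cadherin in mesenchymal cells (ENSG00000170558, chromosome 18 from 27950966 to 28177446, minus strand), was barely detected. Its raw counts were 0, 6 and 0 with NC, 16, 5 and 8 with siRNA1 and 0, 0 and 0 with siRNA2. A count of 0 allows up to 3 counts, which is 0.0536 to 0.0593 CPM in the siRNA2 libraries. Without the filter on low counts no comparison passed, the smallest adjusted p being 0.115 between the siRNAs (edgeR, unadjusted p = 0.0217). In the siRNA2 libraries, where CDH1 was lowest, N-cadherin transcript was thus not detectable at this depth.

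ZEB1, a zinc finger repressor of epithelial genes (ENSG00000148516, chromosome 10 from 31318495 to 31529814, plus strand), moved against CDH1, EPCAM and ESRP1. Its normalized counts were 987, 822 and 1002 with NC, 458, 470.1 and 522 with siRNA1 and 1296, 1359 and 1548 with siRNA2. Every siRNA1 library lay below every NC library and every siRNA2 library above. Against NC, its log2FC was -0.95 with siRNA1 (edgeR, SE 0.11, adjusted p = 4.19e-05), a level 1.94-fold lower, and 0.58 with siRNA2 (SE 0.11, adjusted p = 0.00115), a level 1.49-fold higher. Between the siRNAs the log2 difference was -1.53 (edgeR, SE 0.11, adjusted p = 2.92e-07), the largest among the 8 tested genes. ZEB1 shares 366 exonic bases with ZEB1-AS1, which had a mean of 145 raw counts and did not pass the test (edgeR, log2FC 0.17 and 0.67, smaller adjusted p = 0.160). The NC mean of ZEB1-AS1 was 117 normalized counts, the siRNA1 mean 132 and the siRNA2 mean 187.

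ZEB1 and its paralog ZEB2 are the textbook targets of the miR-200 family, and their 3′ UTRs are set apart from those of the other genes by the number of matching sites. The mature sequences below, from RefSeq (GRCh38.p14), are shown because they fall into 2 groups by their seed, given here in capitals (bases 2 to 8).
hsa-miR-200b-3p (chr1:1167160-1167181, plus strand): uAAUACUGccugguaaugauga
hsa-miR-200c-3p (chr12:6963742-6963764, plus strand): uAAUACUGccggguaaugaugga
hsa-miR-429 (chr1:1169055-1169076, plus strand): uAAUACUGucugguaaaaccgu
hsa-miR-200a-3p (chr1:1167916-1167937, plus strand): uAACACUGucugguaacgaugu
hsa-miR-141-3p (chr12:6964155-6964176, plus strand): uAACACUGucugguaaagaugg

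The longest annotated 3′ UTR of ZEB1, 2549 bases in GENCODE v29, held 6 copies of CAGTATT, the 7-base site of the seed shared by miR-200b, miR-200c and miR-429. The search was on the transcript strand. Each copy is shown in capitals with 11 bases on either side, after the positions of the capitals counted from the first base of the UTR, because ZEB1 is the tested gene of the set with repeated sites.
ZEB1 369 to 375: ttttatcttatCAGTATTatcactcttat
ZEB1 463 to 469: taaatccgcttCAGTATTttattatgttt
ZEB1 892 to 898: gtgccatttctCAGTATTttcaaggctct
ZEB1 1243 to 1249: tttttacctatCAGTATTattttatttct
ZEB1 1313 to 1319: ttcaaacctggCAGTATTaatacccttct
ZEB1 1964 to 1970: ttcatcattatCAGTATTttctttggaaa

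ZEB2 held 5 copies in 5370 bases, ESRP1 and SNAI2 held 1 each, and the other 6 genes held none. Of 14304 tested genes with an annotated 3′ UTR, of a median length of 1279 bases, 17.9% held at least 1 copy, 0.909% at least 3 and 4 genes at least 5. The site of the other seed, CAGTGTT for miR-200a and miR-141, was found 3 times in ZEB1, 4 times in ZEB2 and 1 time in ESRP1, and 20.2% of the tested genes held at least 1 copy. These matches describe the letters of the annotated UTRs. The microRNAs themselves were not measured in these libraries, and MIR200CHG, the host transcript of miR-200c and miR-141, had 14, 23 and 14 normalized counts on average with NC, siRNA1 and siRNA2, with no difference past the threshold (edgeR, smallest adjusted p = 0.529). The 7-base sites that pair with the seeds of the 2 siRNA guide strands were searched in the same UTRs. The siRNA1 site, GTGAACA, was found 1 time in ZEB2 and in no other gene of the set, where 11.8% of the tested genes held it, and the siRNA2 site, GTGAATA, was found in none of the 10, where 12.3% held it. The 300 bases around annotated start sites, which the RefSeq table gave for ZEB1, ZEB2, VIM and CDH2, were searched for the E-box letters CAGGTG or CACCTG. These are each other's reverse complement. Of 7 start sites of ZEB1, 1 had 3 copies, 1 had 1 copy and the others had none. None was found at the start sites of ZEB2 (1), VIM (1) and CDH2 (2), fewer than those of ZEB1. At least 1 copy was held by 20.6% of all promoters in the table.

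ZEB2, a repressor related to ZEB1 (ENSG00000169554, chromosome 2 from 144364364 to 144524583, minus strand), had raw counts of 4, 0 and 0 with NC, 3, 8 and 4 with siRNA1 and 30, 0 and 7 with siRNA2. The highest value came from siRNA2 replicate 1, and the other siRNA2 libraries lay within the range of the other groups. Without the filter on low counts no comparison passed (edgeR, smallest adjusted p = 0.350). Between the ZEB paralogs, transcripts were thus almost entirely those of ZEB1.

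SNAI1, a zinc finger repressor of CDH1 that acts early in EMT (ENSG00000124216, chromosome 20 from 49982999 to 49988886, plus strand), had 563, 491 and 571 normalized counts with NC, 659, 601 and 521 with siRNA1 and 567, 499.8 and 638 with siRNA2. The groups overlapped throughout. Its log2FC values were 0.13 and 0.07 (edgeR, SE 0.13 each, adjusted p = 0.574 and 0.775), and the direct difference was 0.06 (SE 0.13, adjusted p = 0.790).

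SNAI2, the relative known as Slug (ENSG00000019549, chromosome 8 from 48917604 to 48921740, minus strand), was scarce, with raw counts of 16, 32 and 11 with NC, 53, 31 and 37 with siRNA1 and 70, 51 and 62 with siRNA2. After normalization the siRNA2 libraries lay above all others, and those of siRNA1 and NC overlapped. Its log2FC under siRNA2 was 1.66 (edgeR, SE 0.46, adjusted p = 0.0153), a level 3.16-fold higher. With siRNA1 it was 0.98 (SE 0.45, adjusted p = 0.162), and the direct difference was -0.68 (SE 0.44, adjusted p = 0.299), so a difference between the siRNAs was not shown. These calls rested on single NC libraries. The rise with siRNA2 lost its call without NC replicate 1 (adjusted p = 0.0545) or NC replicate 3 (adjusted p = 0.0550), and without NC replicate 2 the siRNA1 value was 1.53 and passed (edgeR, adjusted p = 0.0423).

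TWIST1, a basic helix-loop-helix factor of EMT (ENSG00000122691, chromosome 7 from 19020991 to 19117672, minus strand), had 98.3, 78.3 and 88.0 normalized counts with NC, 60.4, 63.4 and 76.0 with siRNA1 and 87.7, 50.2 and 55.0 with siRNA2. The siRNA1 libraries lay just below NC, and siRNA2 replicate 1 lay within NC. Its log2FC values were -0.41 and -0.45 (edgeR, SE 0.30 each, adjusted p = 0.409 and 0.311), neither past the threshold. Of the 5 EMT transcription factors in the set, ZEB1 passed with both siRNAs, SNAI2 with siRNA2, and SNAI1, TWIST1 and the untested ZEB2 with neither.

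**Figure D2:**
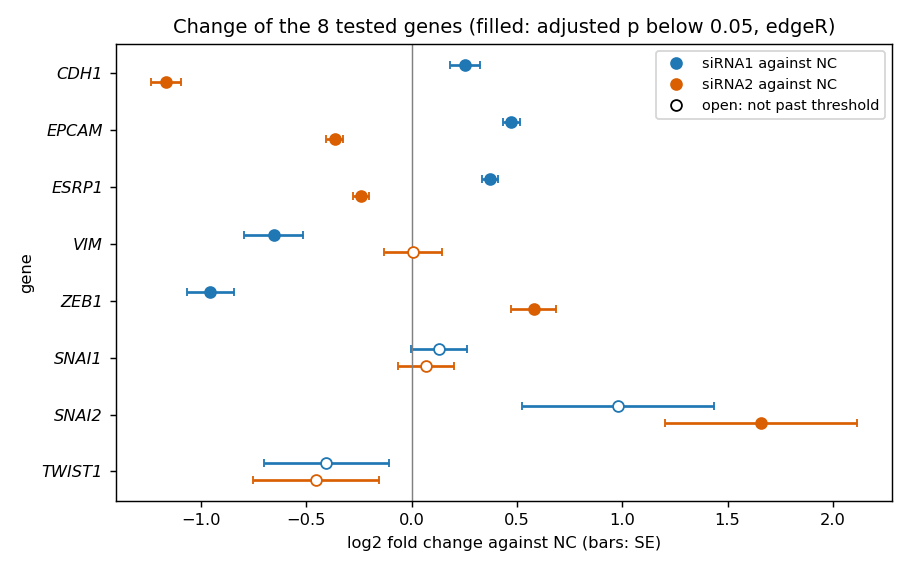
Log2 fold changes against NC on the horizontal axis for the 8 tested genes on the vertical axis, with siRNA1 in blue, siRNA2 in orange and bars of 1 SE; filled points passed the adjusted threshold of 0.05 in edgeR's test and open points did not. CDH1, EPCAM and ESRP1 lie right of 0 with siRNA1 and left of 0 with siRNA2, ZEB1 lies the other way, and both SNAI1 points lie near 0.

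Levels were compared between genes per exon length, as counts divided by an exonic length and scaled to the same total in every library (TPM). This length merges all exons annotated for a gene in GENCODE v29, for example 5158 bases for VIM and 1686 for SNAI1. Exons of transcripts that are not expressed count in it too, which lowers the value of a gene. The order of genes therefore depends on this choice, and lengths of the expressed transcripts were not tested. With NC, EPCAM stood highest at 158 ± 8.39 TPM, followed by ESRP1 at 44.7 ± 0.346, CDH1 at 24.6 ± 1.12, SNAI1 at 16.7 ± 1.46, VIM at 7.18 ± 0.373, ZEB1 at 5.62 ± 0.634, TWIST1 at 2.25 ± 0.268 and SNAI2 at 0.302 ± 0.171 (SD, n = 3 libraries each). With these lengths, no neighbours in this order overlapped in the NC libraries. CDH2 and ZEB2, with means of 0.0212 and 0.0028 TPM, overlapped each other at the bottom. The order changed with siRNA2, where CDH1 fell to 10.9 ± 1.06 TPM, below SNAI1 at 17.3 ± 2.08. There ZEB1, at 8.33 ± 0.735 TPM, overlapped VIM at 7.15 ± 1.16.

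The ratio of CDH1 to ZEB1 levels per length put these opposite changes into a single value for each library. It was 3.95, 5.01 and 4.27 with NC, 10.4, 10.2 and 9.76 with siRNA1 and 1.48, 1.19 and 1.25 with siRNA2. The 3 groups lay far apart. The ratio of EPCAM to VIM was 24.9, 20.5 and 21.0 with NC, 43.7, 45.3 and 57.5 with siRNA1 and 14.3, 18.5 and 19.2 with siRNA2, in the same order. The siRNA2 libraries came close to NC in this ratio, and VIM itself did not pass the test there. In every library EPCAM stood above VIM and CDH1 stood above ZEB1 per length, those with siRNA2 included. The size of each ratio depends on the exon lengths used, which are the same in every library.

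**Figure D3:**
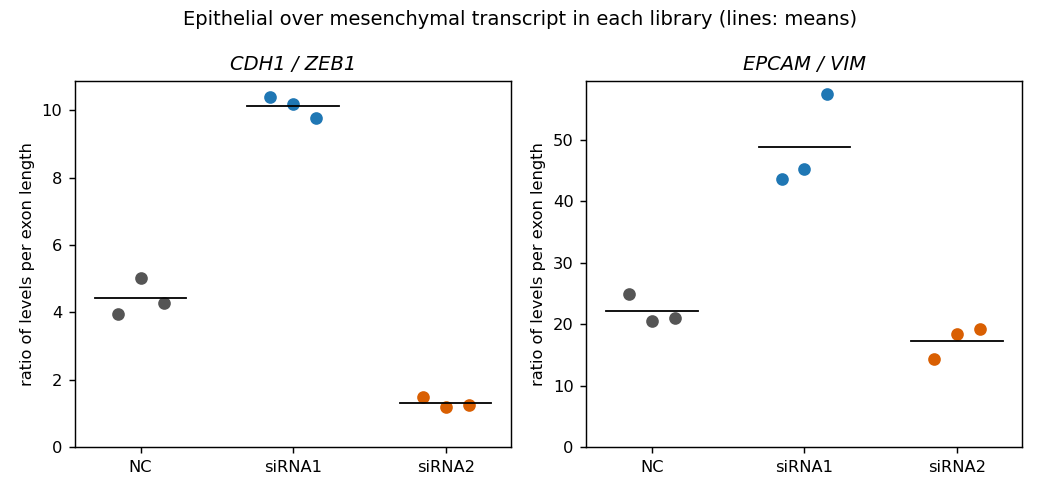
Ratio of levels per exon length of CDH1 to ZEB1 (left) and of EPCAM to VIM (right) on linear vertical axes from 0, for the 3 libraries of NC, siRNA1 and siRNA2; points are libraries and lines are means. Mean CDH1 to ZEB1 ratios are 4.41 with NC, 10.1 with siRNA1 and 1.31 with siRNA2.

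The genes with the most similar pattern over the 9 libraries were found by Pearson correlation of log2 CPM, as a description, since 9 libraries in 3 groups share their group differences. For CDH1 they were TNPO1 (r = 0.995), a nuclear import receptor, and CDK18 (r = 0.995), a cyclin-dependent kinase. EPCAM was nearest to ADGRG6 (r = 0.994), an adhesion G protein-coupled receptor, and CARNMT1 (r = 0.993), and ESRP1 to the mitochondrial chaperonin HSPD1 (r = 0.995) and again ADGRG6 (r = 0.995). ADGRG6 had log2FC values of 0.51 with siRNA1 and -0.37 under siRNA2. It was chosen for this likeness, so these values are no separate support. ZEB1 was nearest to PHC2 (r = 0.994), a Polycomb protein, and IFNAR1 (r = 0.993), an interferon receptor chain. VIM was nearest to ZDHHC2 (r = 0.974) and TIMM17A (r = 0.968), so its closest genes were less alike than those of the other 4.

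Most genes of the epithelial surface and of cell polarity were likewise higher with siRNA1 than with siRNA2. This list and those below were chosen with earlier results of these data known, so their counts are a description. Of 20 tested genes of this list, 9 were higher and 1 was lower with siRNA1 (10.8% and 10.5% of all tested genes). With siRNA2 none was higher and 10 were lower (13.8% and 13.9% of all genes). Directly compared, 17 were higher and none lower with siRNA1 than with siRNA2 (15.1% and 14.3% of all genes). The median log2FC was 0.16 with siRNA1 and -0.23 with siRNA2, where the median over all tested genes was 0.01 and 0.0045, and the median direct difference was 0.50 against 0.0077 over all genes. PATJ, a scaffold of tight junctions, rose by 0.40 with siRNA1 and fell by 0.35 with siRNA2 (edgeR, adjusted p = 0.000935 and 0.00168). SPINT1, an inhibitor of surface serine proteases, had log2FC values of 0.33 and -0.33 (adjusted p = 8.97e-05 and 5.54e-05). CDH3, which encodes P-cadherin, had 0.18 and -0.55 (adjusted p = 0.00379 and 2.50e-07). CLDN7, a claudin that binds EPCAM, rose with siRNA1 by 0.41 (adjusted p = 0.000592), with a siRNA2 value of -0.06 (edgeR, adjusted p = 0.616). With siRNA2, the protease prostasin, PRSS8, fell by 1.02 and MAL2, a protein of apical transport, by 0.60 (edgeR, adjusted p = 9.20e-07 and 1.99e-06), with siRNA1 values of -0.03 and 0.06 that did not pass. ST14, which encodes the protease matriptase, fell with siRNA2 by 0.39 (edgeR, adjusted p = 1.66e-05), and its value of 0.14 with siRNA1 (adjusted p = 0.0346) lost its call without any single library other than siRNA1 replicate 3 and siRNA2 replicate 1 (adjusted p up to 0.186). CLDN4, another claudin, was the 1 gene of the list called lower with siRNA1, and it was lower with siRNA2 too (edgeR, -0.34 and -0.51, adjusted p = 0.00113 and 2.64e-05).

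**Figure D4:**
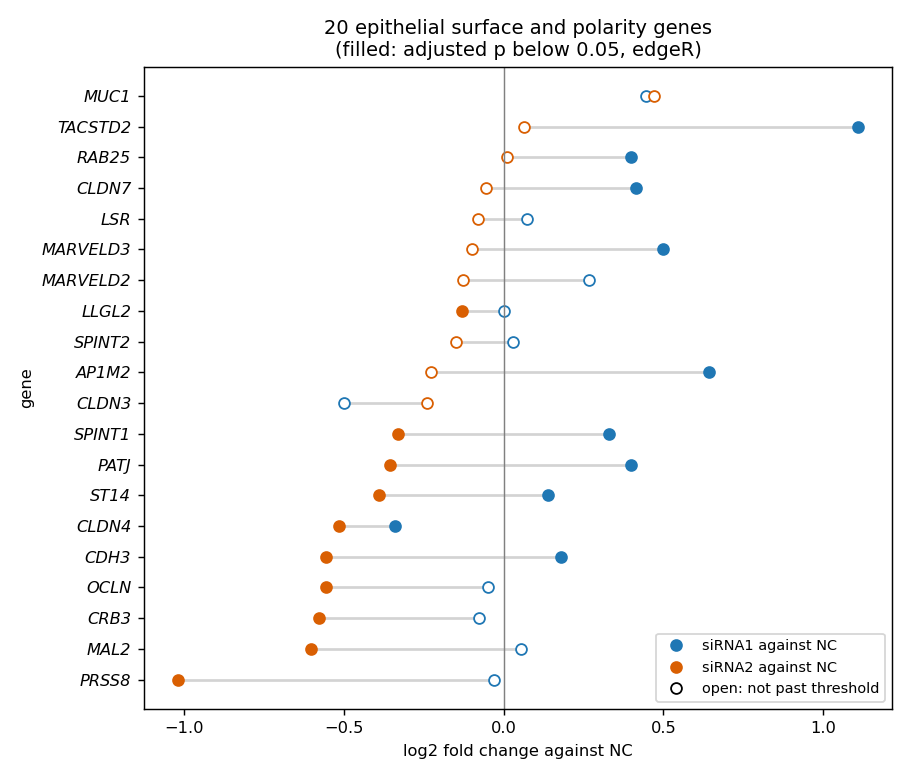
Log2 fold changes against NC on the horizontal axis for the 20 tested genes of the epithelial surface and polarity list, with siRNA1 in blue and siRNA2 in orange joined by a grey line; filled points passed the adjusted threshold of 0.05 in edgeR's test. Blue points lie right of the orange ones for all genes but MUC1 and CLDN3, and neither of these passed with either siRNA.

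Of 8 tested genes of the cadherin and catenin list, 2 were higher and 4 were lower with siRNA1 (21.3% of all tested genes passed). With siRNA2 none was higher and 3 were lower (27.7% of all genes). The medians were -0.02 and -0.04. CDH3, given above, belongs to this list too and had the signs of CDH1. VCL, which encodes the junction and focal adhesion protein vinculin, fell with siRNA1 from 20556 to 21045 normalized counts in NC to 9557 to 9648, a log2FC of -1.12 (edgeR, adjusted p = 1.27e-10), and under siRNA2 it had 0.04 (edgeR, adjusted p = 0.336). CTNND1, the p120 catenin that stabilizes cadherins at the surface, fell with both, by 0.39 and 0.35 (adjusted p = 0.00507 and 0.00691). CTNNA1, α-catenin, fell with siRNA1 by 0.18 (edgeR, adjusted p = 0.000939). CTNNB1, β-catenin, fell with siRNA1 by 0.17 (adjusted p = 0.00293), and its value of -0.12 with siRNA2 (adjusted p = 0.0182) lost its call without NC replicate 1, NC replicate 2 or siRNA2 replicate 2 (edgeR, adjusted p = 0.0525, 0.0582 and 0.0809).

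Of the splicing regulators, ESRP2, the paralog of ESRP1, was higher with both siRNAs (edgeR, 0.33 and 0.28, adjusted p = 0.00132 and 0.00317), so the opposite signs of ESRP1 were not shared by its relative. RBFOX2, a factor tied to mesenchymal splice forms, nevertheless followed the epithelial genes, with 0.25 with siRNA1 and -0.88 under siRNA2 (edgeR, adjusted p = 0.000196 and 2.02e-09). QKI, likewise tied to mesenchymal splicing, fell with both, by 0.54 and 0.58 (edgeR, adjusted p = 2.69e-05 and 9.61e-06). RBM47, an epithelial RNA-binding protein, fell with siRNA2 by 0.63 (adjusted p = 0.000365), and PTBP1, a general repressor of exons, rose with siRNA1 by 0.17 (edgeR, adjusted p = 0.000960). Of the 9 tested genes, 5 were higher and 1 was lower with siRNA1 (21.3% of all tested genes passed). With siRNA2 2 were higher and 3 lower (27.7% of all genes). Gene totals do not show splice forms. Among 11 genes with isoforms that depend on ESRP proteins, 1 was higher and 4 lower in total count with siRNA1 (21.3% of all genes passed). With siRNA2 4 were higher and 1 lower (27.7% of all genes). CD44, a receptor of hyaluronan, was among those called with both (edgeR, -0.36 and 0.18, adjusted p = 2.94e-06 and 0.000650).

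Among factors that sustain the epithelial state, GRHL2, which maintains CDH1 expression in epithelia, had the pattern of CDH1. It had 483, 541 and 512 normalized counts with NC, 789, 762 and 845 with siRNA1 and 321, 304 and 299 with siRNA2. The groups did not overlap. In log2FC this was 0.64 with siRNA1 and -0.73 under siRNA2 (edgeR, SE 0.11 each, adjusted p = 0.000877 and 0.000248). ELF3, an epithelial ETS factor, fell with both, by 0.32 and 1.16 (adjusted p = 0.00226 and 3.41e-08), while GRHL3, another grainyhead factor, rose with both, by 1.30 and 2.02 (adjusted p = 0.00294 and 6.70e-05), and KLF5, a factor of intestinal crypts, rose with siRNA2 by 0.56 (edgeR, adjusted p = 2.34e-06). Of the 16 tested genes of this list, 2 were higher and 1 was lower with siRNA1 (21.3% of all tested genes passed). With siRNA2 4 were higher and 4 lower (27.7% of all genes). The medians were 0.11 and 0.06. The siRNA2 count was 2 higher and 3 lower without siRNA1 replicate 2, siRNA2 replicate 1 or siRNA2 replicate 3, and without the filter on low counts.

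Other EMT transcription factors were mostly higher with siRNA2. Of 11 tested outside the set, 6 were higher and 1 lower with siRNA2 (27.7% of all tested genes passed), with a median of 0.34. With siRNA1 3 were higher and 2 lower (21.3% of all genes), with a median of 0.03. SOX4, a factor of the SOX family, rose with both, by 0.45 with siRNA1 and 1.52 under siRNA2 (edgeR, adjusted p = 2.34e-05 and 3.09e-10). TCF3, whose E2A proteins bind E-boxes, rose with both as well, by 0.26 and 0.73 (adjusted p = 0.000125 and 7.41e-09). FOSL1, an AP-1 subunit, had -0.27 with siRNA1 and 0.32 under siRNA2 (edgeR, adjusted p = 0.000205 and 3.14e-05), the signs of ZEB1. FOXC1, a forkhead factor, rose with siRNA2 by 0.34 (adjusted p = 0.00220). HMGA2, an architectural chromatin protein, fell with siRNA1 by 0.23 (adjusted p = 6.84e-05), and its value of -0.08 with siRNA2 (adjusted p = 0.0381) lost its call without any single NC or siRNA2 library (edgeR, adjusted p from 0.0716 to 0.123).

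Mesenchymal effector genes did not move as a block with ZEB1 and VIM. Of 23 tested, 10 were higher and 3 lower with siRNA1 (21.3% of all tested genes passed), in which ZEB1 and VIM were lower. With siRNA2 7 were higher and 7 lower (27.7% of all genes). The medians were 0.27 and -0.13. VCAN, the matrix proteoglycan versican, rose with both, by 0.44 and 0.85 (edgeR, adjusted p = 3.68e-07 and 5.33e-10). COL1A1, a chain of type I collagen, had 0.72 and -0.45 (adjusted p = 2.20e-05 and 0.000687), the signs of CDH1. NT5E, a surface nucleotidase, had -1.03 and 0.20 (edgeR, adjusted p = 1.64e-09 and 0.000864), the signs of ZEB1. PLAUR, the urokinase receptor, rose with siRNA2 by 0.49 (adjusted p = 3.51e-05). ITGAV, an integrin chain, fell with siRNA2 by 0.49 (adjusted p = 1.96e-06), and its value of 0.18 with siRNA1 (adjusted p = 0.00844) lost its call without NC replicate 1 (edgeR, adjusted p = 0.0620). Summed fibroblast markers, 9 of 10 of them measured and none at 0 in all libraries, stood at 34.1 to 42.0 CPM with NC, 58.01 to 64.3 with siRNA1 and 27.2 to 30.5 with siRNA2. COL1A1 held 1344 to 3545 raw counts and the other 8 at most 37, and their part in these results was not tested.

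Of the other intermediate filament genes, KRT7, a simple-epithelium keratin, had 1619, 1596 and 1514 normalized counts with NC, 2648, 2229 and 2289.7 with siRNA1 and 354, 230.3 and 232 with siRNA2. The groups did not overlap and kept the order of CDH1. The test gave a log2FC of 0.60 with siRNA1 and -2.53 under siRNA2 (edgeR, adjusted p = 0.00509 and 5.46e-08). KRT19, another simple-epithelium keratin, went the other way with siRNA2, higher by 0.59 (adjusted p = 6.03e-07), and PLEC, the filament linker plectin, rose there by 0.37 (edgeR, adjusted p = 2.05e-06). Of 12 tested genes, 3 were higher and none lower with siRNA1 (21.3% of all tested genes passed). With siRNA2 4 were higher and 3 lower (27.7% of all genes). The siRNA1 calls of KRT20 and NES were lost in many alternatives, which left 1 gene of the list called without any single library other than NC replicate 3 or siRNA1 replicate 1. For KRT20 the log2FC was 1.42 (edgeR, adjusted p = 0.0417, and up to 0.126), a call lost without any single library other than NC replicate 3. For NES, which encodes nestin, it was 0.22 (edgeR, adjusted p = 0.0474, and up to 0.228), a call lost without any single library other than siRNA1 replicate 1. With siRNA2 KRT20, a keratin of differentiated colon cells, rose by 2.59 (edgeR, adjusted p = 0.000897).

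Of 21 tested genes of signals tied to EMT, inhibitors such as SMAD7 among them, 2 were higher and 8 were lower with siRNA1 (21.3% of all tested genes passed). With siRNA2 3 were higher and 10 lower (27.7% of all genes). The medians were -0.05 and -0.14. Because the list mixes inducers and inhibitors, these counts and medians give no direction of EMT. SMAD7, which inhibits TGF-β receptors, fell with siRNA2 by 2.14 (edgeR, adjusted p = 8.85e-08), with a siRNA1 value of 0.30 (adjusted p = 0.0979). That siRNA1 value passed in limma-voom (adjusted p = 0.0436). ID1, an inhibitor of helix-loop-helix factors that BMP signals induce, had -0.98 with siRNA1 and 0.72 under siRNA2 (edgeR, adjusted p = 2.42e-06 and 1.65e-05), and ID2, its relative, fell with both, by 0.71 and 0.62 (edgeR, adjusted p = 1.57e-05 and 2.69e-05). TGFBR3, the co-receptor betaglycan, fell with siRNA2 by 0.99 (adjusted p = 1.39e-06). MET, the receptor of hepatocyte growth factor, and LOXL2, a lysyl oxidase that stabilizes SNAI1, fell with both, MET by 0.78 and 0.27 and LOXL2 by 0.83 and 0.48 (edgeR, largest adjusted p = 0.000217). BMP4, a BMP ligand, rose with siRNA1 by 0.55 (adjusted p = 3.11e-06).

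Partners of the SNAI and ZEB proteins moved in both directions. Of 23 tested, 6 were higher and 3 were lower with siRNA1 (21.3% of all tested genes passed). With siRNA2 5 were higher and 4 lower (27.7% of all genes). The medians were 0.06 and 0.03. CTBP2, a corepressor that ZEB1 recruits, fell with siRNA1 by 0.54 (edgeR, adjusted p = 1.79e-06), and its value of -0.15 with siRNA2 (adjusted p = 0.0209) lost its call without NC replicate 1, NC replicate 3 or siRNA2 replicate 2 (adjusted p = 0.0769, 0.0806 and 0.0902). SMARCA4, the chromatin remodeller BRG1, rose with both, by 0.23 and 0.35 (edgeR, adjusted p = 0.000215 and 3.64e-06). FBXW7, a ubiquitin ligase subunit, rose with both as well, by 0.37 and 0.89 (adjusted p = 0.00251 and 1.18e-06). AJUBA, a LIM protein that assists SNAI1, fell with siRNA2 by 0.73 (edgeR, adjusted p = 8.85e-08), and so did BTRC, a subunit of the ligase that degrades SNAI1, by 0.35 (adjusted p = 9.49e-05). EZH2, the Polycomb methyltransferase, and CSNK2A1, a casein kinase subunit, rose with siRNA1 by 0.29 and 0.21 (edgeR, adjusted p = 0.00150 and 0.000626).

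EPCAM is cleaved at the membrane by ADAM proteases and γ-secretase, and its released tail acts with FHL2. Of 12 tested genes of this process, 2 were higher and 3 were lower with siRNA1 (21.3% of all tested genes passed). With siRNA2 3 were higher and 2 lower (27.7% of all genes). The medians were -0.07 and 0.05. The siRNA2 count was 3 higher and none lower without NC replicate 2 or NC replicate 3. NCSTN, the γ-secretase subunit nicastrin, rose with both, by 0.42 and 0.60 (edgeR, adjusted p = 1.61e-05 and 3.88e-07), and APH1A, another subunit, rose with siRNA2 by 0.24 (adjusted p = 0.00298). The APH1A value with siRNA1 was -0.15 (edgeR, adjusted p = 0.0549). It passed in several alternatives, DESeq2 among them (adjusted p = 0.0245). FHL2 fell with siRNA1 by 0.30 (adjusted p = 0.00120). ADAM17 had -0.19 with siRNA2 (adjusted p = 0.0201), a call lost without NC replicate 2, NC replicate 3 or siRNA2 replicate 1 (edgeR, adjusted p = 0.0606, 0.0985 and 0.0709).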

How the data were processed

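The authors deposited raw counts per gene, whole numbers that are not normalized, for 35817 Ensembl genes in 9 HCT116 libraries (NC, siRNA1 and siRNA2, 3 each, grouped by label), and every library was used. The submitters' notes name hg19, with aligner, counting program and strand not given in the sources used here. Positions, exon lengths and 3′ UTRs came from GRCh38 with GENCODE v29, joined by gene ID (34766 genes matched), and microRNAs and promoters from RefSeq (GRCh38.p14). Members and gene lists were chosen with earlier results of these data known. Genes were kept by filterByExpr (minimum count 10, minimum total 15), scaled by TMM and tested by edgeR 4.0.16 (quasi-likelihood F test, R 4.3.3) in 1 model of 3 groups with 6 residual degrees of freedom, with Benjamini-Hochberg adjustment over 21130 genes and a threshold of 0.05. Each SE was derived from log2FC and F (absolute log2FC divided by the root of F). The test was also run on counts simulated as independent libraries, which cannot show whether the real libraries are separate cultures. Named genes were the members, for each list and siRNA up to 4 called genes in order of adjusted p, the antisense genes, and 2 genes per called member with the highest correlation (log2 of CPM + 0.1, mean of at least 50 normalized counts), and 1 gene that the rule named is not reported here. Alternatives were DESeq2 1.42.0, limma-voom (limma 3.58.1), median-of-ratios and upper quartile scaling, no filter, a stricter filter, only the 2 groups compared, a replicate block and each library left out.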

Additional observations from a re-analysis of the deposited data

Results flagged for a closer look

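Responses to the 2 siRNAs differed from each other for 66 of the named genes, by edgeR's direct test of siRNA1 against siRNA2 with adjustment over all genes tested. Over all tested genes, 29.4% passed this comparison. Named genes were mostly chosen for passing against NC or for following the pattern of a member, so this count describes chosen genes. Values are log2 differences, positive where siRNA1 was higher, and no cause was tested. Among the epithelial and mesenchymal state genes they were 1.42 for CDH1, 0.84 for EPCAM, 0.61 for ESRP1, -1.53 for ZEB1 and -0.66 for VIM. For genes with the most similar patterns they were 0.61 for TNPO1, 1.02 for CDK18, 0.88 for ADGRG6, 0.93 for CARNMT1, 0.55 for HSPD1, -0.60 for PHC2, -0.54 for IFNAR1, -0.39 for ZDHHC2 and -0.38 for TIMM17A. Those genes were chosen for their likeness to called members in the same libraries, so their differences follow from the choice.

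Among epithelial surface, polarity and adhesion genes the difference was 0.66 for SPINT1, 0.47 for CLDN7, 0.75 for PATJ, 0.18 for CLDN4, 0.99 for PRSS8, 0.66 for MAL2, 0.53 for ST14, 0.73 for CDH3, -1.16 for VCL and -0.25 for CTNNA1. Among epithelial transcription factors it was 1.37 for GRHL2, 0.84 for ELF3, -0.73 for GRHL3 and -0.58 for KLF5. The call of CLDN4 was lost without any single library other than siRNA1 replicate 2 (adjusted p up to 0.234), and that of GRHL3 without siRNA1 replicate 1 or 2 or any single siRNA2 library (adjusted p from 0.0515 to 0.172, from edgeR), and also with a replicate block (adjusted p = 0.0669) or without the filter on low counts (adjusted p = 0.0884).

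Among splicing regulators the difference was 1.13 for RBFOX2, 0.12 for PTBP1 and 0.81 for RBM47, and among genes with ESRP-dependent isoforms -0.54 for CD44, -0.62 for NUMB, -0.13 for SCRIB and -0.22 for EXOC7. The PTBP1 call was lost without siRNA1 replicate 3 or siRNA2 replicate 3 (adjusted p = 0.0514 and 0.0789 from edgeR).

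Among EMT transcription factors the difference was -1.07 for SOX4, -0.14 for HMGA2, -0.48 for TCF3, -0.59 for FOSL1 and -0.46 for FOXC1. Among genes of inducing signals, inhibitors included, it was -0.51 for MET, -0.35 for LOXL2, -1.70 for ID1, 0.50 for BMP4, 2.44 for SMAD7 and 1.00 for TGFBR3. For partners of SNAI and ZEB proteins it was -0.40 for CTBP2, -0.12 for SMARCA4, 0.18 for CSNK2A1, 0.38 for EZH2, 0.82 for AJUBA, -0.52 for FBXW7 and 0.18 for BTRC, whose call was lost without siRNA1 replicate 2, siRNA1 replicate 3 or siRNA2 replicate 2 (adjusted p = 0.0523, 0.0587 and 0.0777 from edgeR).

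Among mesenchymal effectors the difference was -1.22 for NT5E, -0.41 for VCAN, 1.16 for COL1A1, 0.67 for ITGAV and -0.44 for PLAUR. Among filament genes it was 3.13 for KRT7, 0.38 for NES, -0.55 for KRT19 and -0.35 for PLEC, and among genes of EPCAM cleavage -0.18 for NCSTN, -0.42 for FHL2 and -0.39 for APH1A. For VIM-AS1 it was -1.27, a call lost without siRNA1 replicate 2, siRNA2 replicate 1 or siRNA2 replicate 2 (adjusted p = 0.0724, 0.0578 and 0.0550 from edgeR).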

How the results depend on the processing

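With siRNA1, 4491 genes passed the threshold, and 3646 to 5039 over the alternatives with all libraries. With siRNA2 5853 passed, and 4993 to 6339, and between the siRNAs 6216, and 5342 to 6703. With a replicate block the counts were 4481, 5800 and 6229, and the block changed no call of the 8 tested state genes. Among the other named genes, it ended the calls of NES with siRNA1 and of GRHL3 between the siRNAs (adjusted p = 0.0619 and 0.0669, from edgeR) and added those of APH1A with siRNA1 and of KRT20 between the siRNAs (adjusted p = 0.0207 and 0.0486). Same-numbered libraries did not deviate together (correlations of -0.0741 to 0.0408, and 0 of 9 libraries correlated best with their own number), so the numbers were not treated as pairs. Leaving out single libraries gave 3475 to 4305, 4884 to 6034 and 5320 to 6038 genes. For the state genes, of 408 values under alternatives 390 kept direction and side of the threshold, and 12, of VIM, SNAI1 and TWIST1, changed sign while passing neither before nor after (smallest adjusted p = 0.603, from edgeR). A further 5 lost the call and 1 gained it, and these 6, of CDH1 and SNAI2, all came from leaving out a single library. No called value changed sign. Upper quartile scaling moved the share of higher calls with siRNA1 from 50.6% to 57.2%. Genes of few counts (SNAI2, TWIST1, ZEB2, CDH2) are limited by depth and by 3 libraries a group, and the cause of these shifts was not tested.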
